A study of Mus musculus with 9 samples.

Results

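The genes described here move calcium into and out of the endoplasmic reticulum or carry the calcium signal to calcineurin. They are the 3 inositol trisphosphate (IP3) receptor genes Itpr1, Itpr2 and Itpr3, the store-operated entry genes Stim1 and Orai1, the calcineurin catalytic subunit genes Ppp3ca and Ppp3cb, the calcineurin regulator Rcan1, and the calcium pump genes Atp2a2 and Atp2b1. They were chosen by gene symbol, and all 10 were found among the 56691 genes listed. Each was also among the 11995 genes tested, which reached 1 FPKM, a read count scaled by exonic length and library total, in at least 3 libraries. RNA was sequenced from RAW264.7, a mouse macrophage cell line that becomes osteoclast-like when given RANKL, the cytokine that starts osteoclast formation. The control group received no RANKL, the RANKL group received RANKL, at 50 ng/mL by the study's methods, and the RANKL + UD group received RANKL with uridine (UD). Each group held 3 libraries of RNA collected on day 3 of culture. The UD concentration used for these libraries was not given in the sources used here. Every sample came from the same established line, so the comparisons describe that line and not macrophages in tissue. The labels call the 3 libraries of a group replicate biosamples without naming separate cultures, so the p-values measure the spread between these libraries, which may be technical. The comparisons asked how RANKL changed these genes and what UD added to RANKL.

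In resting cells the pump SERCA2, the product of Atp2a2, fills the endoplasmic reticulum with calcium, and the plasma membrane pump PMCA1, the product of Atp2b1, sends calcium out of the cell. IP3 made by phospholipase C opens the IP3 receptors and releases the store, STIM1 senses the emptied store, and STIM1 then opens the ORAI1 channel in the plasma membrane. The calcium that enters binds calmodulin, which activates the phosphatase calcineurin, and calcineurin lets NFATc1, the main transcription factor of osteoclast formation, enter the nucleus. Oscillating calcium signals of this kind are known from RANKL-treated macrophage precursors, and Rcan1 is known both as a calcineurin inhibitor and as a target gene of NFAT.

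Rcan1 had the widest range of group means on the log2(FPKM + 1) scale among the 10 genes and has alternative first exons, so the windows around its annotated start sites are shown. They run from 250 bases before to 50 bases after each start, 5′ to 3′ on the gene's minus strand, and come from RefSeq on assembly GRCm38.p6. The bases just after these starts were found near the 5′ end of 0 Rcan1 transcripts of another annotation, GENCODE. Each window of the other genes had at least 1 such transcript. Capitals mark the NFAT core letters GGAAA, or TTTCC where the core lies on the opposite strand.
Rcan1 upstream start, chr16:92466120-92466419: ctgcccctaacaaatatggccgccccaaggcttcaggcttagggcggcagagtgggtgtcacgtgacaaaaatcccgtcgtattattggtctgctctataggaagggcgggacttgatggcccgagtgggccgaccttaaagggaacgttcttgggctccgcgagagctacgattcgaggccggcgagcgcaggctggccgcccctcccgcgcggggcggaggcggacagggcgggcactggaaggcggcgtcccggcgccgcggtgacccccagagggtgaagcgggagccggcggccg
Rcan1 downstream start, chr16:92400029-92400328: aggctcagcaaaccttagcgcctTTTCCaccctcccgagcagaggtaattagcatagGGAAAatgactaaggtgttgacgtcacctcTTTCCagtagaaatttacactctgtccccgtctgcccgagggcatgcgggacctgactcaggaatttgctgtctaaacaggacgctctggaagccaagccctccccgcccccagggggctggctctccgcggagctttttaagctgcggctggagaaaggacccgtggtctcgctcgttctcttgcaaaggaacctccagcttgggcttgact
The start sites lie 66091 bases apart. The upstream window held no match to GGAAA in either strand and had a GC content of 67.7%. The downstream window held 3 matches, beginning 227, 193 and 163 bases before the start, and had a GC content of 56.3%. It also held 1 match to TGACTCA, the AP-1 letters, which did not overlap the cores. Of all 32851 promoter windows in the table, 61.3% held at least 1 GGAAA in either strand, 26.7% held at least 2, and 0.728% held at least 5. The shares with at least 3 or at least 4 were not counted. TGACTCA was held by 5.2%. The deposited values count reads per gene, so they cannot tell transcripts of the upstream start from those of the downstream start. Windows were found for 7 of the 10 genes, 9 windows in all, and windows of 3 genes held the core: Rcan1, Ppp3cb with 4 matches, and Atp2b1 with 1. The ER stress element, which is found before many genes of reticulum proteins, was in 0.119% of all windows and matched no window of these genes. A match describes letters only.

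By the deposited coordinates Itpr1 (ENSMUSG00000030102) spans 108190057 to 108528070 on the plus strand of chromosome 6, and Itpr2 (ENSMUSG00000030287) spans 146009797 to 146403721 on the minus strand of the same chromosome. Itpr3 (ENSMUSG00000042644) spans 27276278 to 27341197 on the plus strand of chromosome 17. Stim1 (ENSMUSG00000030987) spans 101917013 to 102086526 on the plus strand of chromosome 7. Orai1 (ENSMUSG00000049686) spans 123153137 to 123168519 on the plus strand of chromosome 5, and Atp2a2 (ENSMUSG00000029467) spans 122591576 to 122640288 on its minus strand. Ppp3ca (ENSMUSG00000028161) spans 136375885 to 136643488 on the plus strand of chromosome 3. Ppp3cb (ENSMUSG00000021816) spans 20549432 to 20596641 on the minus strand of chromosome 14. Rcan1 (ENSMUSG00000022951) spans 92188841 to 92267755 on the minus strand of chromosome 16, and Atp2b1 (ENSMUSG00000019943) spans 98750268 to 98862005 on the plus strand of chromosome 10. The submitters' processing notes name mm10, but 0 of the 10 genes had the same coordinates in GRCm38 while 10 of 10 had the same span, so the build of these coordinates is not settled and they cannot be set against the promoter positions. None of the genes overlapped another tested gene.

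Total counts ran from 15951800 to 19746862 per library. The genes drew 50 to 11079 reads in a library, with the fewest for Orai1, so its values were the least precise. FPKM values were scaled by the library's total count, while the tests used counts scaled by the trimmed mean of M-values (TMM), whose factors were 0.959 to 0.962 in the RANKL libraries and 1.01 to 1.03 in the others. Fold changes from the tests can therefore differ from ratios of mean FPKM, and small ones can point the other way. Atp2b1 had means of 29.05 FPKM in control and 28.99 in RANKL libraries, but its tested log2 fold change was 0.08. Ppp3cb had means of 24.20 FPKM in RANKL and 24.55 in RANKL + UD libraries, but its tested log2 fold change was -0.07. Neither difference was called. The macrophage identity was checked on 9 markers, of which 7 were tested, and their summed FPKM was 9373 to 9965 in control, 2496 to 2742 in RANKL and 2177 to 2311 in RANKL + UD libraries. Lyz2 made up most of that sum, with a mean of 8000 FPKM in control and 1431 in RANKL libraries. With RANKL 6 of the 7 fell, while Cd68 rose from 549 to 782 mean FPKM (log2 fold change 0.60, adjusted p = 1.07e-08). With UD against RANKL 5 fell, Adgre1 rose by 0.22 (adjusted p = 0.0142) and Fcgr1 was not called. Summed FPKM of 9 osteoclast markers, of which 8 were tested, was 46.9 to 50.1, 2641 to 2844 and 1666 to 1703 in the same order. Markers of fibroblasts, T cells and epithelium summed to at most 1.2 FPKM in any library, and Cd3e, Cd3g and Cdh1 were listed at 0 in all 9. Both macrophage and osteoclast markers thus moved with the groups in which the calcium genes changed, and their part in the results below was not tested. In RNA from whole cultures, fewer cells of a type and less RNA per cell cannot be told apart.

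With RANKL, 4 of the 10 genes rose and 5 fell. Rcan1, Itpr3, Atp2a2 and Ppp3cb were higher, and Itpr1, Orai1, Itpr2, Stim1 and Ppp3ca were lower. Among all 11995 tested genes, 27.3% were called higher and 30.2% lower in edgeR's quasi-likelihood test at a Benjamini-Hochberg adjusted p under 0.05. The FPKM ranges of RANKL and control libraries did not overlap for 9 of the 10, against 61.7% of all tested genes. Adding UD to RANKL gave 2 higher and 4 lower genes of the 10, against 18.6% higher and 20.2% lower among all tested genes. Itpr1 and Atp2a2 were higher, and Itpr3, Atp2b1, Ppp3ca and Itpr2 were lower. The ranges did not overlap for 6 of the 10, against 51.7% of all tested genes. With UD the share of higher calls was thus close to that of all genes. The changes were also small: the median of the absolute log2 fold changes was 0.30 for the 10 genes with RANKL against 0.33 for all genes, and 0.18 with UD against 0.21. Apart from Rcan1, the largest change among the 10 genes was the 1.73-fold fall of Itpr1 with RANKL.

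**Figure D1:**
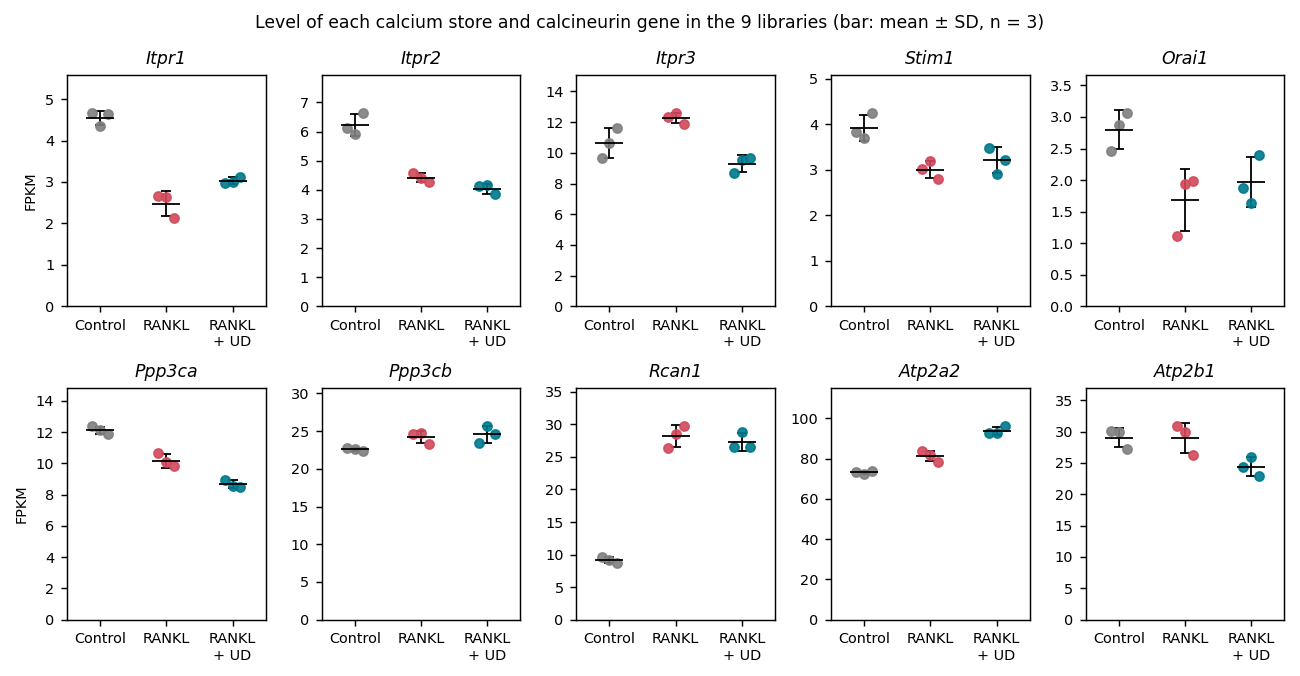
FPKM of each gene in the 9 libraries, with points for libraries and bars for the mean ± SD (n = 3); every vertical axis starts at 0 and has its own scale. Rcan1 stands at 8.76 to 9.58 FPKM in control libraries and 26.4 to 29.7 in RANKL libraries, while Atp2a2 rises from 72.6 to 74.0 in control to at least 92.6 in RANKL + UD libraries.

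Per length, the order of the levels in control libraries ran from Atp2a2 at 73.3 ± 0.737 FPKM (SD, n = 3) down to Orai1 at 2.80 ± 0.307 FPKM. Atp2b1 and Ppp3cb followed Atp2a2, then Ppp3ca, Itpr3, Rcan1, Itpr2, Itpr1 and Stim1. No neighbours in this order overlapped among the 3 control libraries, although Itpr3 from 9.64 FPKM and Rcan1 up to 9.58 FPKM nearly met. In RANKL libraries Rcan1 had moved up beside Atp2b1, and their ranges of 26.4 to 29.7 and 26.3 to 30.8 FPKM overlapped. Itpr3 was above Ppp3ca in RANKL libraries and overlapped it in RANKL + UD libraries. The pump genes and Ppp3cb were above every release and entry gene of the 10 in all 9 libraries.

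The IP3 receptors are the release channels of the store, and their genes moved in different directions. Itpr1, the type 1 receptor, had 4.66, 4.35 and 4.64 FPKM in control, 2.66, 2.65 and 2.13 in RANKL, and 2.97, 3.01 and 3.12 in RANKL + UD libraries. The 3 groups did not overlap, with control highest and RANKL lowest. With RANKL, Itpr1 fell by 0.79 on the log2 scale (standard error 0.0748, 95% interval -0.94 to -0.63, edgeR Benjamini-Hochberg adjusted p = 1.09e-08), the largest fall among the 10 genes. With UD it was higher than in RANKL by 0.20 (standard error 0.0762, interval 0.04 to 0.36, adjusted p = 0.0404). That call did not hold without RANKL replicate 3, the lowest library, where the difference was 0.10 (adjusted p = 0.233), nor without any 1 of the 3 RANKL + UD libraries (adjusted p 0.0664 to 0.123). It was also lost with scaling by relative log expression (adjusted p = 0.0554) and in DESeq2 (adjusted p = 0.0614). RANKL + UD against control gave -0.58 (adjusted p = 8.97e-07).

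Itpr2, the type 2 receptor, had 6.12, 5.92 and 6.63 FPKM in control, 4.58, 4.40 and 4.26 in RANKL, and 4.12, 4.15 and 3.84 in RANKL + UD libraries. Its levels stepped down from control to RANKL and again to RANKL + UD, with no overlap. RANKL lowered it by a log2 fold change of -0.41 (standard error 0.0608, adjusted p = 7.31e-06). UD lowered it further by -0.22 (standard error 0.0622, interval -0.35 to -0.09, adjusted p = 0.00869). The second step lost its call when libraries were scaled by total counts (adjusted p = 0.101), in limma on log2(FPKM + 1), where the difference was -0.10 (adjusted p = 0.191), or when RANKL + UD replicate 3 was left out (adjusted p = 0.0542).

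Itpr3, the type 3 receptor, was the most abundant of the family, with 9.64, 10.7 and 11.6 FPKM in control, 12.3, 12.6 and 11.9 in RANKL, and 8.66, 9.54 and 9.67 in RANKL + UD libraries. RANKL libraries were above all others, and the other two groups overlapped. It rose with RANKL by 0.29 (standard error 0.0628, adjusted p = 0.000441) and fell with UD by 0.49 against RANKL (standard error 0.0633, interval -0.62 to -0.36, adjusted p = 3.26e-06). The latter was the largest change that UD added among the 10 genes and kept its call in all 16 alternatives. RANKL + UD was below control at -0.20 (adjusted p = 0.0136), although that call was lost in 3 of 16 alternatives. Among them were those without control replicate 3 (adjusted p = 0.0818) or RANKL + UD replicate 1 (adjusted p = 0.0931).

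The makeup of the receptor family was then compared within libraries. The summed level was 21.4 ± 1.3 FPKM in control, 19.2 ± 0.752 in RANKL and 16.4 ± 0.529 in RANKL + UD libraries (SD, n = 3). Itpr3 made up 49.6% ± 2.1 of it in control, 64.0% ± 1.05 in RANKL and 56.8% ± 1.61 in RANKL + UD libraries. Itpr1 made up 21.3% ± 1.35, 12.9% ± 1.1 and 18.6% ± 0.456 in the same order. Its share was therefore lowest with RANKL alone and the share of Itpr3 highest. Itpr2 made up 29.1% ± 0.848, 23.0% ± 0.55 and 24.7% ± 1.54. Of the 9 comparisons of these shares, 8 had groups that did not overlap and the smallest p that an exact two-sided permutation test of 3 against 3 libraries can give, 0.1 (0.109 after Benjamini-Hochberg adjustment over 12 such tests). The exception was the share of Itpr2 between RANKL + UD and RANKL, which differed by 1.66 points (exact p = 0.3). Shares add to 100% in a library, so they are not independent of each other.

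**Figure D2:**
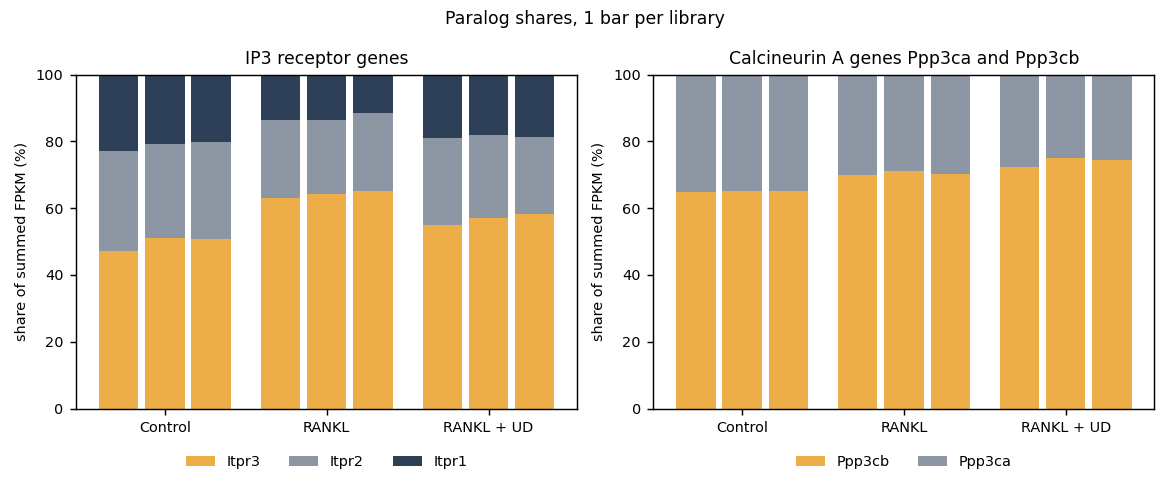
Share of each gene in the summed FPKM of the genes shown in its panel, in percent, with 1 stacked bar per library: IP3 receptors on the left, and Ppp3ca with Ppp3cb, without Ppp3cc, on the right. The Itpr3 part is 63.0 to 65.1% in RANKL libraries against 47.2 to 50.9% in control and 55.0 to 58.2% in RANKL + UD libraries, and the Ppp3ca part shrinks from 34.7 to 35.2% in control to 25.1 to 27.6% in RANKL + UD libraries.

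Stim1 and Orai1 encode the sensor and the pore of store-operated entry, and both fell with RANKL. Stim1 had 3.82, 3.70 and 4.24 FPKM in control, 3.01, 3.18 and 2.80 in RANKL, and 3.48, 2.91 and 3.22 in RANKL + UD libraries. The control libraries were above all others, and the other two groups overlapped. The log2 fold change was -0.30 with RANKL (standard error 0.0867, adjusted p = 0.00584) and -0.29 in RANKL + UD against control (adjusted p = 0.00852), a call lost without RANKL + UD replicate 2 (adjusted p = 0.0611). RANKL + UD against RANKL gave 0.01 with an interval of -0.17 to 0.20 (adjusted p = 0.928), which holds small differences of either direction.

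Orai1 had 2.46, 2.87 and 3.06 FPKM in control, 1.11, 1.94 and 1.98 in RANKL, and 1.88, 1.63 and 2.40 in RANKL + UD libraries. Every control library was above every other library, and RANKL replicate 1 was far below its group. The log2 fold change with RANKL was -0.65 (standard error 0.216, interval -1.10 to -0.20, adjusted p = 0.0134), and without RANKL replicate 1 it was -0.43 and no longer called (adjusted p = 0.0893). UD against RANKL gave 0.15 with a wide interval of -0.31 to 0.62 (adjusted p = 0.635). RANKL + UD against control gave -0.50 (adjusted p = 0.0539), which missed the threshold but passed it in 6 of 16 alternatives, among them those without control replicate 1, RANKL replicate 1 or RANKL + UD replicate 3 (adjusted p 0.0283 to 0.0456).

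The paralogs of these genes were read beside them. Orai2, a related pore subunit, had 7.41 to 8.21 FPKM in control and 11.6 to 13.4 in RANKL libraries, a rise of 0.75 on the log2 scale (standard error 0.0672, adjusted p = 3.93e-09). Orai3, another pore subunit, had means of 12.0, 10.8 and 12.9 FPKM in control, RANKL and RANKL + UD libraries and was called in no comparison (adjusted p 0.627 with RANKL and 0.189 with UD against RANKL). Stim2, the second sensor, had 12.0 ± 1.06 FPKM in control (SD, n = 3) and 11.7 in each RANKL library. It had 8.93 to 9.52 in RANKL + UD libraries, a log2 fold change of -0.42 against RANKL (standard error 0.0676, adjusted p = 4.99e-05). Orai2 was more abundant per length than Orai1, and Stim2 than Stim1, in every library.

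Calcineurin joins a catalytic subunit to a regulatory subunit. Ppp3ca, which encodes the alpha catalytic subunit, had 12.4, 12.1 and 11.9 FPKM in control, 10.7, 10.1 and 9.80 in RANKL, and 8.94, 8.56 and 8.46 in RANKL + UD libraries. It stepped down in both comparisons with no overlap between groups. The log2 fold change was -0.17 with RANKL (standard error 0.0527, adjusted p = 0.0106) and -0.32 when UD was added to RANKL (standard error 0.0535, interval -0.43 to -0.21, adjusted p = 6.97e-05). RANKL + UD against control gave -0.48 (adjusted p = 1.16e-07). All of these calls held in all 16 alternatives.

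Ppp3cb, which encodes the beta catalytic subunit, had 22.8, 22.7 and 22.4 FPKM in control, 24.6, 24.7 and 23.3 in RANKL, and 23.4, 25.6 and 24.6 in RANKL + UD libraries. Control libraries were below all others by a narrow margin. It rose with RANKL by 0.19 (standard error 0.0477, adjusted p = 0.00216), a call lost under scaling by total counts, where the difference was 0.10 (adjusted p = 0.0895). The call was also lost in limma on log2(FPKM + 1), where the difference was 0.09 (adjusted p = 0.0923). UD against RANKL gave -0.07 with an interval of -0.17 to 0.03 (adjusted p = 0.296). RANKL + UD against control gave 0.12 (adjusted p = 0.0391), a call lost in 7 of 16 alternatives, including those without any 1 control library, RANKL replicate 2, or RANKL + UD replicate 2 or 3 (adjusted p 0.0504 to 0.176). The summed FPKM of Ppp3ca and Ppp3cb was 34.7 ± 0.431, 34.4 ± 1.17 and 33.2 ± 0.915 in control, RANKL and RANKL + UD libraries (SD, n = 3). It leaves out Ppp3cc, another catalytic subunit gene, which had means of 8.70, 8.75 and 7.38 FPKM in the same order. Within that sum Ppp3ca made up 34.9% ± 0.239, 29.6% ± 0.639 and 26.1% ± 1.37, and none of the groups overlapped (exact two-sided permutation p = 0.1, the smallest possible, in each comparison).

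Rcan1, whose product binds and inhibits calcineurin, had 9.58, 9.23 and 8.76 FPKM in control, 26.4, 28.5 and 29.7 in RANKL, and 26.5, 28.8 and 26.5 in RANKL + UD libraries. Control libraries were far below all others, and the RANKL + UD range lay inside the RANKL range. It rose 3.25-fold with RANKL, a log2 fold change of 1.70 (standard error 0.0671, interval 1.56 to 1.84, adjusted p = 4.83e-15), which ranked 741 by size among the 11995 tested genes. RANKL + UD was 2.97-fold above control (log2 fold change 1.57, adjusted p = 2.3e-14). UD against RANKL gave -0.13 with an interval of -0.26 to -0.0055 and an adjusted p of 0.093, so it was not called, although the same difference was -0.18 and called without RANKL replicate 1 (adjusted p = 0.0441). For Nfatc1, the transcription factor that calcineurin activates, levels were 9.77, 10.3 and 11.5 FPKM in control, 74.9, 77.5 and 76.0 in RANKL, and 57.7, 57.4 and 57.2 in RANKL + UD libraries. Its groups did not overlap. Nfatc1 rose 7.70-fold with RANKL (adjusted p = 2.89e-20) and was lower with UD at a log2 fold change of -0.49 (standard error 0.0503, adjusted p = 1.38e-07). The 95% interval of the UD change was -0.60 to -0.39 for Nfatc1 and ended at -0.26 for Rcan1, and the difference between the genes was not tested.

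Atp2a2, which encodes the SERCA2 pump of the reticulum, was the most abundant of the 10 genes, with 73.4, 72.6 and 74.0 FPKM in control, 83.6, 82.0 and 78.5 in RANKL, and 92.68, 92.58 and 96.01 in RANKL + UD libraries. The groups stepped upward with no overlap. It rose by 0.24 with RANKL (standard error 0.0444, adjusted p = 0.000102) and by 0.12 when UD was added (standard error 0.0442, interval 0.03 to 0.21, adjusted p = 0.0395). The UD step was not called in 7 of 16 alternatives, among them scaling by relative log expression (adjusted p = 0.0669) and leaving out any 1 of the RANKL + UD libraries (adjusted p 0.0658 to 0.151) or RANKL replicate 2 or 3 (adjusted p = 0.0831 and 0.0963). RANKL + UD against control gave 0.36 (standard error 0.0444, adjusted p = 6.91e-07) and was called in all 16. Atp2a3, the SERCA3 pump gene, had 17.7 to 18.4 FPKM in control, 17.7 to 19.2 in RANKL and 25.5 to 27.0 in RANKL + UD libraries. Its level was higher with UD by 0.42 against RANKL (standard error 0.0513, adjusted p = 1.3e-06).

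Atp2b1, which encodes the PMCA1 pump of the plasma membrane, had 30.1, 29.9 and 27.3 FPKM in control, 30.8, 29.9 and 26.3 in RANKL, and 24.3, 25.9 and 23.0 in RANKL + UD libraries. Control and RANKL libraries overlapped, and RANKL + UD libraries were below both. RANKL against control gave 0.08 with an interval of -0.04 to 0.21 (adjusted p = 0.242), and 0.15, past the threshold, without RANKL replicate 3 (adjusted p = 0.0282). UD lowered it by -0.34 against RANKL (standard error 0.0601, interval -0.46 to -0.21, adjusted p = 0.000142), and RANKL + UD against control gave -0.25 (adjusted p = 0.00131). RANKL + UD libraries were thus lowest for Atp2b1 and highest for Atp2a2.

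**Figure D3:**
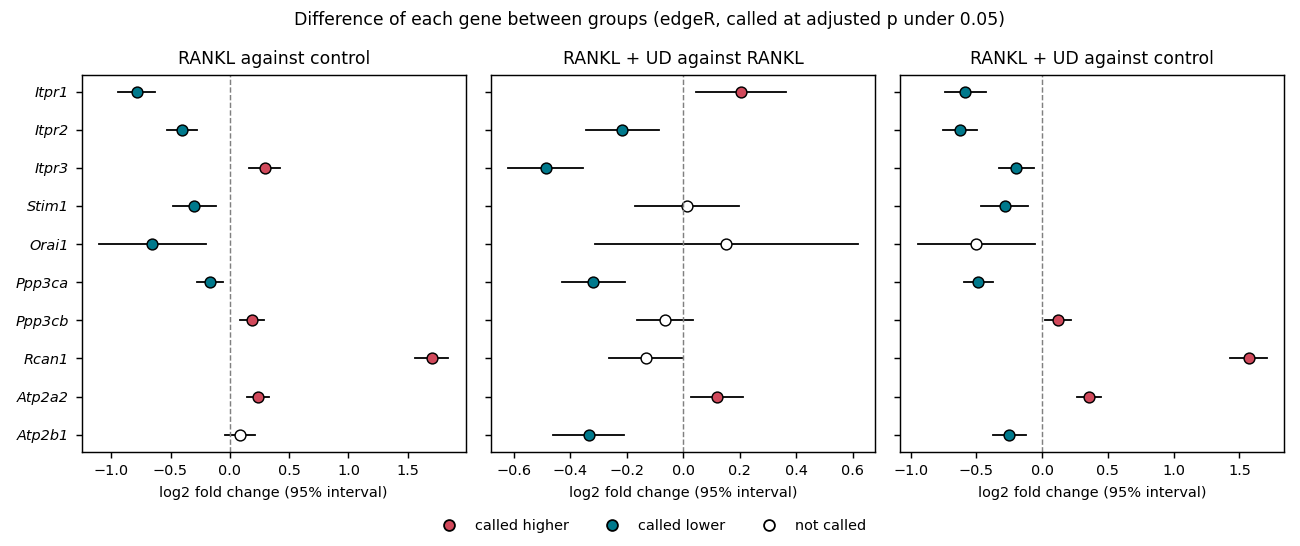
Log2 fold change of each gene in the 3 comparisons from edgeR, with 95% intervals as lines and the call as the colour of the point; the horizontal scale differs between panels. Rcan1 stands apart at 1.70 with RANKL, while in RANKL + UD against RANKL the points run from -0.49 for Itpr3 to 0.20 for Itpr1.

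The RANKL libraries served both comparisons, so the values of one are not independent of the other, and RANKL + UD was also set against control. There, 3 of the 10 genes were higher and 6 lower, against 26.7% and 27.3% of all tested genes, and the ranges of 9 did not overlap, against 59.9%. Rcan1, Atp2a2 and Ppp3cb were higher, and Itpr2, Itpr1, Ppp3ca, Stim1, Atp2b1 and Itpr3 were lower, with log2 fold changes from -0.62 for Itpr2 to 1.57 for Rcan1. Side by side, the log2 fold changes with RANKL and with UD added to RANKL were -0.41 and -0.22 for Itpr2, and -0.17 and -0.32 for Ppp3ca. They were -0.79 and 0.20 for Itpr1, and 0.29 and -0.49 for Itpr3.

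The rest of the pathway was read from 9 lists that hold 104 other genes, of which 72 were tested. With RANKL, 26 of the 72 rose, 26 fell and 20 were not called, where 27.3% of all tested genes rose and 30.2% fell, with a median log2 fold change of 0.02 against -0.03 for all genes. With UD against RANKL, 8 rose, 23 fell and 41 were not called, where 18.6% of all tested genes rose and 20.2% fell, with a median of -0.08 against 0.00 (0.00497) for all genes. Under scaling by total counts the UD split turned to 18 higher and 12 lower, and that of all genes moved from 2233 higher and 2418 lower to 3350 and 1707, so the balance of directions depended on the scaling. The RANKL split of all genes likewise moved from 3278 higher and 3628 lower to 2579 and 4421. Of the genes with the largest called changes in each list, named below, all 26 calls with RANKL held in all 16 alternatives, 13 of 24 with UD did, and none turned direction. The counts of each list stand against the same shares of all tested genes, and lists of 5 to 10 genes give coarse counts.

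Genes that make or break down IP3 came first in the pathway. With RANKL, 5 of 9 tested rose and 3 fell, against 27.3% and 30.2% of all tested genes. Plcb4, a phospholipase C, rose from 15.3 to 47.4 mean FPKM (log2 fold change 1.73, adjusted p = 1.09e-16), the IP3 kinase Itpkc by 0.86 and the IP3 phosphatase Inpp5a by 0.83. Itpkc reached 1 FPKM only in the RANKL libraries and RANKL + UD replicate 1, so the filter favoured finding its rise. Plcg2, the phospholipase C gamma that acts downstream of immune receptors, fell with UD from 23.8 to 21.9 mean FPKM (log2 fold change -0.21, adjusted p = 0.00552). Plcd3 and Itpkb also fell with UD, at -0.48 and -0.25, and the UD calls of Plcg2, Plcd3 and Itpkb did not hold under scaling by total counts. That of Plcd3 held in only 10 of 16 alternatives and was also lost without RANKL replicate 2 or 3 or RANKL + UD replicate 1 or 2. Among release regulators 5 of 10 rose and 4 fell with RANKL, and with UD 0 rose and 3 fell, against 18.6% and 20.2% of all tested genes. Ryr1, a ryanodine receptor, rose by 0.83 with RANKL and fell by 0.68 with UD, at mean levels of 0.867, 1.46 and 0.97 FPKM. Ryr1 reached 1 FPKM only in the RANKL libraries and RANKL + UD replicate 3, so the filter favoured finding both changes. Itpripl2 and Itpripl1, relatives of an IP3 receptor interacting protein, changed by 0.96 and -0.94 with RANKL. Tmbim6 and Ahcyl1 fell with UD, at -0.23 and -0.19, calls that were also lost with total counts.

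Of the store-operated entry partners, 1 of 6 rose with RANKL, Orai2, and 1 fell, Stimate, at -0.91, and with UD only Stim2 was called. Of the calcineurin partners, 3 of 10 rose and 1 fell with RANKL, so the higher calls were close to the 27.3% of all tested genes and the lower calls under the 30.2%. The regulatory subunit gene Ppp3r1 rose from 53.9 to 68.6 mean FPKM (log2 fold change 0.43, adjusted p = 3.67e-07), Chp1, a calcineurin B homologue, rose by 0.45, and the calmodulin gene Calm2 fell at -0.18. With UD 3 rose and 2 fell. Ppp3cc, the third catalytic subunit gene, fell from 8.75 to 7.38 mean FPKM (log2 fold change -0.33, adjusted p = 0.00518), and Calm2 fell again at -0.28, while the scaffold gene Homer1 rose by 0.37. Homer1, Ppp3cc and Calm2 kept their UD calls in all 16 alternatives.

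Among other pumps and exchangers, 1 of 5 rose and 3 fell with RANKL, against 27.3% and 30.2% of all tested genes. The sodium-calcium exchanger Slc8a1 fell from 2.28 to 0.277 mean FPKM (log2 fold change -2.97, adjusted p = 1.94e-14), the mitochondrial exchanger Slc8b1 from 11.4 to 4.33 (log2 fold change -1.30, adjusted p = 1.06e-09) and the plasma membrane pump Atp2b4 at -0.55. Slc8a1 reached 1 FPKM only in control libraries. It was thus tested only because of the group where it was high, and the filter favoured finding a fall. With UD 2 rose, Atp2a3 and Slc8a1, and the secretory pathway pump Atp2c1 fell at -0.44. The rise of Slc8a1 was from 0.277 to 0.447 mean FPKM, under 1 FPKM in every library of both groups. Its call was lost in limma on log2(FPKM + 1) (adjusted p = 0.185). Store calcium buffers gave 3 of 6 higher and 2 lower with RANKL, among them calreticulin, Calr, which rose from 343 to 442 mean FPKM, Calu, which rose by 0.79, and Rcn1, which fell at -0.39. With UD 0 rose and 2 fell, Sdf4 at -0.32 and Calu at -0.20, the latter not called with total counts.

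Of the NFAT factors and calmodulin kinases, 3 of 10 rose and 6 fell with RANKL, with higher calls close to the 27.3% of all tested genes, of which 30.2% fell. Beside Nfatc1, which rose, Nfatc2 fell from 5.39 to 1.99 mean FPKM (log2 fold change -1.35, adjusted p = 3.69e-12) and the kinase Camk1 from 21.1 to 8.49 (log2 fold change -1.23, adjusted p = 1.3e-13). With UD 2 rose and 4 fell, among them Nfat5 at 0.26 and Camk2d at -0.39. The Nfat5 call was lost with DESeq2 and also without RANKL replicate 3 or RANKL + UD replicate 1 or 2. Mitochondrial uptake genes gave 2 of 7 higher and 2 lower with RANKL, and 0 higher and 3 lower with UD. Mcub, which restrains the uniporter pore, fell in both, at -0.54 and -0.52, and the gatekeeper Micu2 changed by 0.50 and then -0.29. Micu3 fell at -0.60 with RANKL, and Mcu, the pore itself, at -0.27 with UD. Of the other calcium channels, 3 of 9 rose and 4 fell with RANKL, and 0 rose and 4 fell with UD. The voltage-gated channel genes Cacna1d and Cacna1a fell with RANKL, at -2.60 and -0.89, and Cacna1a fell again with UD at -0.43. Cacna1d reached 1 FPKM only in control libraries, so the filter favoured finding its fall. The lysosomal channel genes Tpcn2 and Tpcn1 fell with UD, at -0.27 and -0.25, and Tpcn2 was higher by 0.74 with RANKL. The UD calls of Mcu and Tpcn2 were lost with total counts, and those of Mcu, Tpcn2 and Tpcn1 with limma. That of Tpcn2 held in 11 of 16 alternatives.

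**Figure D4:**
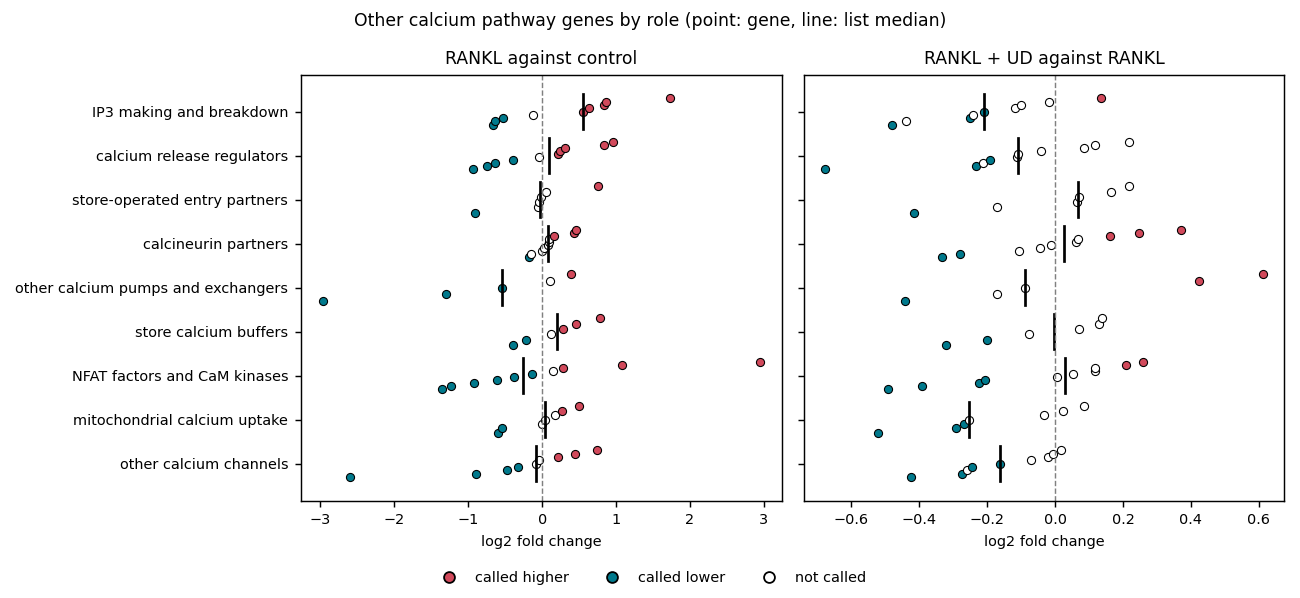
Log2 fold change of the 72 other tested calcium genes by role, with 1 point per gene coloured by its call and a line at the median of each list; the horizontal scale differs between panels. Nfatc1 at 2.94 and Slc8a1 at -2.97 mark the ends in the RANKL panel, and the UD panel runs from -0.68 for Ryr1 to 0.61 for Slc8a1. Slc8a1 passed the filter of 1 FPKM through control libraries only, and Ryr1 passed it through the RANKL libraries.

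For the 3 genes with the widest range of group means of log2(FPKM + 1), Rcan1, Itpr1 and Itpr2, the tested genes of most similar pattern over the 9 libraries were found by Pearson correlation on the same scale, which mostly reflects the 3 groups the libraries share. For Rcan1 these were Akap6 (r = 0.998), which was listed at 0 FPKM in control and had means of 1.147 in RANKL and 1.107 in RANKL + UD libraries, Ccr3 (r = 0.997), with means of 0.01, 5.71 and 4.85 FPKM, and Sgsm1 (r = 0.997), with 1.80, 13.8 and 12.3 FPKM. Akap6 and Ccr3 could pass the filter of 1 FPKM only through libraries given RANKL, where they were high, so the filter favoured finding their pattern. For Itpr1 the nearest genes were Pgap1 (r = 0.993), Itga4 (r = 0.993) and Top2b (r = 0.993). Itga4, an integrin subunit, had means of 256, 86.6 and 119 FPKM in control, RANKL and RANKL + UD libraries, so it too was lowest with RANKL alone. For Itpr2 they were Zc3hav1 (r = 0.996), Fads6 (r = 0.993) and Rgs18 (r = 0.992), and Rgs18 stepped from 4.19 to 1.42 and 0.933 FPKM. The means of Fads6 were 1.62, 0.687 and 0.573 FPKM, above 1 only in control, so the filter favoured its pattern as well.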

How the data were processed

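RNA was sequenced from 9 RAW264.7 libraries, 3 per group, after poly(A) selection with a strand-marking kit. The authors deposited whole-number read counts per gene without normalization, and FPKM values, which counts, exonic lengths and library totals gave back within rounding for 100% of genes. The submitters' processing notes name mm10; the aligner, the counter and whether counting used strand were not given in the sources used here. All 18 value columns matched 1 library each, and the RANKL columns are headed as the model group, a name the paper uses. The columns of annotation were used for symbols and coordinates only. Counts were tested with edgeR 4.0.16 in R 4.3.3 (quasi-likelihood, TMM scaling, all 9 libraries in 1 fit, Benjamini-Hochberg adjustment over the 11995 genes that reached 1 FPKM in 3 or more libraries, called at adjusted p under 0.05). The procedure was tested on simulated data. Alternatives were DESeq2 1.42.0, limma 3.58.1 on log2(FPKM + 1), other scalings, no filter, 6 libraries, a replicate block and each library left out. The median total count was 19182637. Shares were compared by exact permutation with numpy 2.4.6, and figures were drawn with matplotlib 3.10.9. The text names the 10 genes, up to 3 genes with the largest called change per list and comparison, and the 3 genes nearest in pattern to each of 3 members. Marker genes are named too, and Orai3 was added after its values were seen. The members and lists were chosen with earlier results of these data known.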

Additional observations from a re-analysis of the deposited data

How the results depend on the processing

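Of 480 recomputed fold changes of the 10 genes, 432 kept their direction and their side of the threshold, 30 lost the call, 8 gained one and 10 turned direction. All 10 that turned belonged to differences that were not called. For RANKL against control, Atp2b1 gave -0.00429 with total counts and -0.00463 with limma. For RANKL + UD against RANKL, Stim1 gave -0.000234 with relative log expression, -0.000349 with DESeq2, -0.0338 without RANKL replicate 3 and -0.0568 without RANKL + UD replicate 1, and at most 0.0786 when 1 library was left out, RANKL + UD replicate 2. Orai1 gave -0.0743 without RANKL replicate 1, -0.00848 without RANKL + UD replicate 3 and at most 0.289 when 1 library was left out, RANKL replicate 3. Ppp3cb gave 0.0206 with total counts and 0.0195 with limma. In that comparison the 2 genes called higher became 0 with relative log expression and 1 with no expression filter or with DESeq2, and 0 to 2 when 1 library was left out (1 without RANKL replicate 2, and 0 without RANKL replicate 3 or any 1 RANKL + UD library). The 8 wider genes called higher became 18 with total counts, 17 with limma and 5 with DESeq2, and 5 to 9 when 1 library was left out (5 without RANKL + UD replicate 1 or 2), while the 23 called lower became 12 with total counts and with limma. Among all genes, 3350 were called higher with total counts and 1556 lower with limma. Total counts moved the median log2 fold change of all genes from -0.03 to -0.12 with RANKL and from 0.00497 to 0.09 with UD. Shares from counts without gene length gave differences of -10.3 points for Itpr1 and -4.39 for Itpr2 with RANKL, and 7.43 and 0.488 with UD against RANKL. Of 372 recomputed counts and shares, the other 351 stayed within 1.5 times the reported count or within 1 SD of the reported share difference, and the cause of the changes was not tested.

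Deviations from the group mean correlated at -0.0252 to 0.0777 between same-numbered libraries of different groups. Between differently numbered libraries the correlations were -0.0818 to 0.0414. All were small, but the highest belonged to same-numbered libraries, so whether the numbers pair the libraries was not settled. With the replicate block, 4 of the 10 genes were higher and 5 lower with RANKL, and 2 and 4 with UD against RANKL; RANKL + UD against control gave 3 and 7, as Orai1 passed the threshold (adjusted p = 0.0366). Counts of Orai1, 50 to 130 in a library, limit what could be seen for that gene.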
